A study of Mus musculus with 22 samples.

Results

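Footprints of hnRNP A1 were followed across 10 tubulin and actin genes in spinal cords of naïve mice and of mice with experimental autoimmune encephalomyelitis (EAE), in which immunization against myelin leads to inflammation and paralysis. The genes were the alpha-tubulins *Tuba1a*, *Tuba1b* and *Tuba4a*, the beta-tubulins *Tubb2a*, *Tubb3*, *Tubb4a*, *Tubb4b* and *Tubb5*, and the actins *Actb* and *Actg1*, and a footprint was counted for a gene when it overlapped the annotated span of the gene on GRCm38 by at least 1 nt. All 10 genes were footprinted in at least 1 mouse, by 137 of the 136207 footprints of the series, and they were 10 of 13948 footprinted genes among the 55536 annotated. All mice were wild-type females labelled C57Bl/6, with C57BL/6N in the supplier details. The 7 EAE mice were immunized with the myelin peptide MOG(35-55) emulsified in complete Freund's adjuvant and also given pertussis toxin, at 12 weeks of age by the protocol and at 8 weeks by the design text, and spinal cords were taken 15 days after clinical onset. For the 3 age-matched naïve mice no immunization is given. By clinical score, EAE was mild in mice 3, 4 and 7 (scores 1.5, 1.5 and 1.0) and severe in mice 1, 2, 5 and 6 (scores 2.5, 3.0, 2.5 and 3.0), the numbers being those of the labels. CLIPseq joins protein to RNA with UV light, and the RNA recovered with an anti-hnRNP A1 antibody is sequenced. Here each mouse gave 1 list of genome positions that remained after sites of the matched input or of the pooled IgG control had been taken away.

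Alpha- and beta-tubulin form the dimers from which microtubules are built, the tracks of axonal transport, and beta- and gamma-actin form the filaments of the cell cortex and of growth cones. Alpha- and beta-tubulin are each encoded by several genes, some of them with nearly the same coding sequence. Processed pseudogenes, intronless copies of mRNAs, exist for some tubulin and actin genes and are spread over the genome. hnRNP A1 is an RNA-binding protein of the nucleus that takes part in splicing and mRNA export and binds UAG-containing RNA.

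The stretches of coding sequence covered in the most mice are shown first, for 3 of the genes ranked highest by that number, since they are the places where the lists of different mice met. All are read on the strand of the gene from GRCm38, with T for U, and positions count from the A of the start codon as 1. The *Tubb3* stretch at chr8:123420885-123420984 (plus strand, 100 nt) and the *Tubb4a* stretch at chr17:57081649-57081738 (minus strand, 90 nt) were each covered in 6 mice, of which 2 were naïve, 3 had mild EAE and 1 had severe EAE. In *Tubb5*, chr17:35836630-35836709 (minus strand, 80 nt) was covered in 1 naïve mouse, 2 mice with mild EAE and 1 with severe EAE. Capitals mark the letters TAG, which are UAG in the RNA. TAG and AGGT (AGGU in the RNA) were searched on the strand of the gene only, and the letters AG can belong to both where a TAG is followed by GT.
Tubb3: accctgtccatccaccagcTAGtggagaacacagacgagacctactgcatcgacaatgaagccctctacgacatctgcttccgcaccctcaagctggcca
Tubb4a: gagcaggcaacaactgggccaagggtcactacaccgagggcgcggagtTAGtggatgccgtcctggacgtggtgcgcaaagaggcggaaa
Tubb5: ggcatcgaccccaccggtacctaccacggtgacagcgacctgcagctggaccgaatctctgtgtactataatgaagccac

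The *Tubb3* and *Tubb4a* stretches held 1 UAG each and no AGGU, and the *Tubb5* stretch held neither. Windows of the same length laid end to end along the coding sequences of all footprinted protein-coding genes held UAG in 40.7% of 198587 windows for the length of the *Tubb3* stretch and in 37.3% of 221250 for that of *Tubb4a*. For that of *Tubb5*, 34.4% of 249484 windows held UAG and 23.2% AGGU.

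The lists differed in length far more in severe EAE than in the other groups. Naïve mice had 17119 to 17494 footprints in all, mice with mild EAE 9751 to 24433, and mice with severe EAE 2670 (mouse 1), 209 (mouse 2), 31870 (mouse 5) and 673 (mouse 6). No read counts accompany the footprints, so that the depth behind each is unknown, and a gene without a footprint is one in which none was retained. For whole libraries the study gives mapped reads. By these, naïve mouse 2, with 17454 footprints, had the fewest of all mice, fewer than severe EAE mice 1, 2 and 6 with their short lists. Markers of spinal cord were present, with 7 of 8 neuronal, 7 of 7 oligodendrocyte and 6 of 6 astrocyte marker genes footprinted, and *Chat*, which marks cholinergic neurons, at 0 in all mice. The 8 microglia and leukocyte markers, of which 7 were footprinted, summed to 172 to 447 nt in naïve mice, 959 to 2270 nt in mild EAE and 0 to 4299 nt in severe EAE, and among them *Cd74*, *Csf1r*, *Lyz2*, *Itgam* and *Ptprc* were at 0 in naïve mice and *Aif1* in all mice. *Ctss* was footprinted in naïve mice 2 and 3 (119 and 138 nt) and in every mouse with mild EAE (51 to 187 nt), and *Cx3cr1* had 172 to 309 nt in naïve mice and 0 to 173 nt in mild EAE. Neuronal markers summed to 3202 to 4445, 1424 to 2739 and 0 to 6426 nt in the same order. *Syt1* (mean 1821 nt in naïve mice, 302 nt in mild EAE) and *Rbfox3* (705 and 163 nt) made up most of the lower sum in mild EAE, and the median difference of mild EAE from naïve mice over the neuronal list was 37.7 nt, opposite in sign to the sums. The part of list length and of these markers in the results on tubulin and actin genes was not tested, and in whole tissue fewer cells of a type and less RNA per cell cannot be told apart.

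Summed over the 10 genes, footprints covered 1171, 1521 and 2906 nt in naïve mice 1, 2 and 3. Mild EAE mice 3, 4 and 7 had 3777, 1574 and 2816 nt, and severe EAE mice 1, 2, 5 and 6 had 193, 0, 5150 and 177 nt. Naïve and mild EAE mice overlapped in this sum, and severe EAE mice lay at both extremes, with mouse 5 above and the other mice below all others. The mean sum was 1866 ± 918 nt (SD, n = 3) for naïve mice, 2722 ± 1104 nt (SD, n = 3) for mild EAE and 1380 ± 2515 nt (SD, n = 4) for severe EAE. All EAE mice together had 1955 ± 2021 nt (SD, n = 7), 89.3 nt above naïve mice, a difference far smaller than the spread between mice, and one whose sign turned on the log2 scale (−1.99) and in the number of footprints (−1.38). Mild EAE was 856 nt above naïve mice, and severe EAE was lower than naïve mice by a difference of −486 nt and than mild EAE by −1342 nt, none of them larger than the SD of at least 1 of the groups compared. Per 100000 nt covered by all footprints of the mouse, the genes took 52.8, 74.0 and 133 nt in naïve mice, 244, 136 and 94.3 nt in mild EAE and 58.5, 0, 124 and 233 nt in severe EAE, so that severe EAE mouse 6 no longer lay at the low end.

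**Figure D1:**
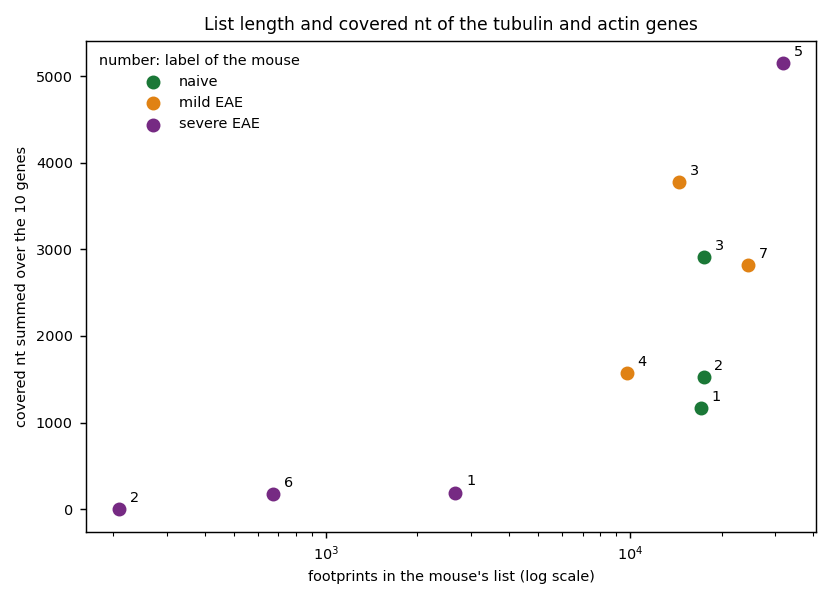
Covered nt summed over the 10 tubulin and actin genes (vertical axis) against the number of footprints in the list of each mouse (horizontal axis, log scale), with 1 point per mouse and its label number beside it. Severe EAE mice 1, 2 and 6, with lists of 2670, 209 and 673 footprints, lie at 193, 0 and 177 nt, and severe EAE mouse 5, with 31870, at 5150 nt.

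Across the 10 mice the sum had a Spearman rho of 0.745 with the total covered nt of the mouse, given here as a description since both come from the same list. Genes whose covered nt followed the sum closely, among 3646 genes footprinted in at least 5 mice, were *Gm14421* (rho 0.988), *Vps41* (0.976), *Sf3b2* (0.973) and *Pisd-ps1* (0.970), each over 10 mice that share the differences in list length. *Sf3b2* encodes a subunit of the spliceosome, and *Gm14421* and *Pisd-ps1* are annotated pseudogenes.

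To ask which genes differed, covered nt per gene were compared between groups of mice for all 6731 genes footprinted in at least 3 mice by exact permutation tests, with Benjamini-Hochberg adjustment over all of them. These p-values measure the spread between mice. Of the 10 tubulin and actin genes 9 entered the tests, and *Tuba4a* was footprinted in too few mice. Between EAE and naïve mice, *Tubb4b* was the 1 gene of the 9 that was lower at an exact permutation p under 0.05, where 6.17% of all tested genes were lower at that level, and none of the 9 was higher, where 0.0149% of all genes were. No gene of the 6731 passed an adjusted p of 0.05, the smallest adjusted p of the exact permutation tests being 0.449, and 416 genes had an unadjusted p under 0.05. The median difference of the 9 genes was −29.6 nt, and that of all tested genes was −26.3 nt. In mild EAE against naïve mice, the 9 genes had a median difference of 149 nt where all tested genes had 4.67 nt. No tubulin or actin gene was above all naïve mice in every mouse with mild EAE, where 5.24% of all genes were, and 1, *Tubb3*, was below them in every mouse, where 5.26% of all genes were. In severe EAE, none of the 9 genes lay below all naïve mice in every mouse, where 4.72% of all genes did, and the median differences were −48.1 nt for the 9 genes and −52.4 nt for all. Against mild EAE, severe EAE had median differences of −90 nt for the 9 genes and −57.1 nt for all tested genes.

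**Figure D2:**
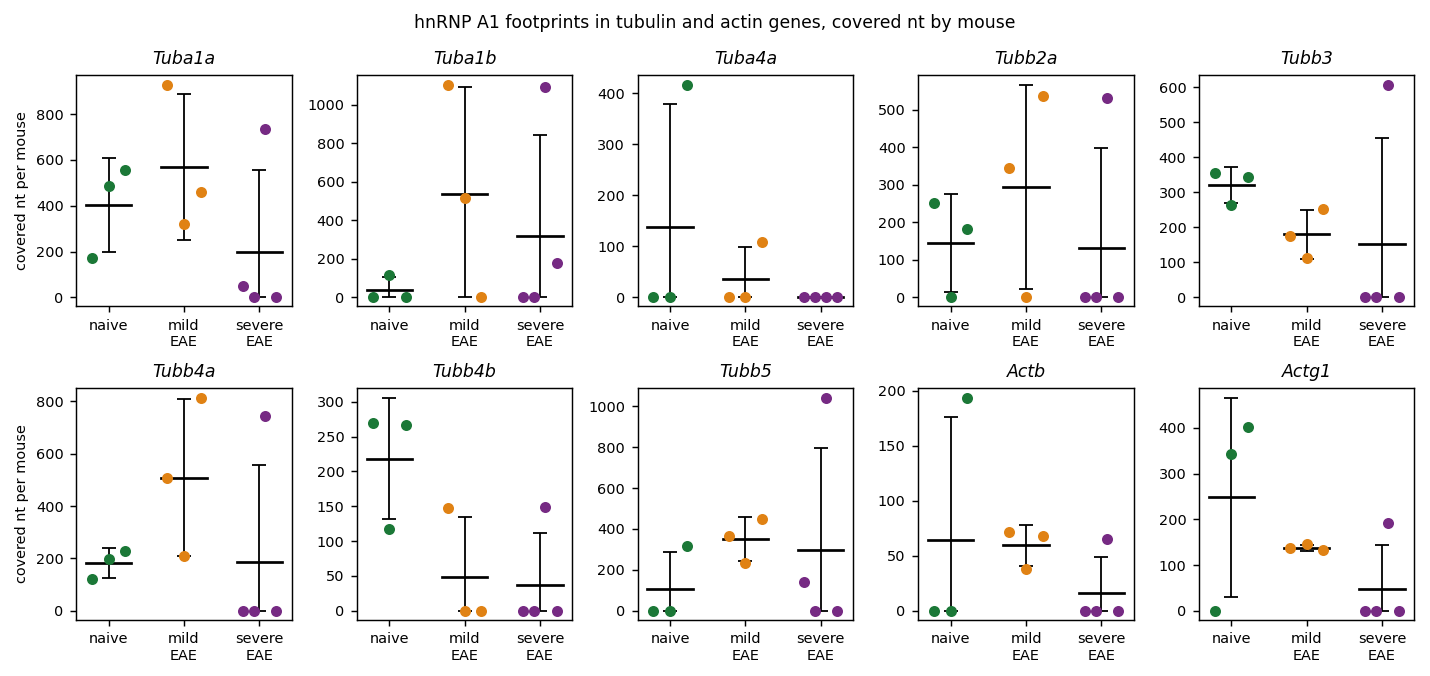
Covered nt per gene (vertical axis, a separate scale for each gene) in each naïve, mild EAE and severe EAE mouse, with 1 point per mouse, the group mean as a line and 1 SD as the bar, whose lower arm is cut at 0. *Tubb3* and *Tubb4b* were footprinted in all 3 naïve mice, and severe EAE mouse 5 is the highest severe EAE mouse in 9 of the 10 genes, *Tuba4a* being at 0 in all of them.

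Among the alpha-tubulins, *Tuba1a*, the isotype most closely tied to postmitotic neurons, was covered over 171, 486 and 556 nt in naïve mice 1, 2 and 3. In mild EAE the values were 926, 320 and 460 nt in mice 3, 4 and 7, and in severe EAE 52, 0, 733 and 0 nt in mice 1, 2, 5 and 6. It was thus footprinted in 8 of 10 mice, more than any other of the genes, and the groups overlapped. EAE mice differed from naïve mice by −48.5 nt, which was within the spread (exact permutation p = 0.858, adjusted p = 1). *Tuba1b*, a broadly expressed alpha-tubulin, was at 0, 114 and 0 nt in naïve mice, at 1101, 515 and 0 nt in mild EAE and at 0, 0, 1093 and 177 nt in severe EAE. Of the EAE mice 4 were therefore covered over more of *Tuba1b* than any naïve mouse, and 3 had none of it. Its mean was 38.0 ± 65.8 nt in naïve mice (SD, n = 3) and 412 ± 502 nt in EAE mice (SD, n = 7), a difference of 374 nt that did not exceed the spread (exact permutation p = 0.267, adjusted p = 1). *Tuba4a*, which encodes an alpha-tubulin without the terminal tyrosine, was covered in naïve mouse 3 (416 nt) and mild EAE mouse 7 (109 nt) alone.

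Of the beta-tubulins, *Tubb3*, the neuronal isotype, had 356, 263 and 345 nt in naïve mice, 175, 113 and 253 nt in mild EAE and 0, 0, 606 and 0 nt in severe EAE. All 3 mice with mild EAE lay below all 3 naïve mice. Severe EAE mouse 5, whose library had the most mapped reads of all mice, lay above every other mouse in these unscaled values. The mean was 321 ± 50.8 nt for naïve mice and 180 ± 70.2 nt for mild EAE (SD, n = 3 each), a difference of −141 nt at the smallest p that 3 mice against 3 allow (exact permutation p = 0.1, adjusted p = 0.920). Against all EAE mice the difference was −157 nt (exact permutation p = 0.258, adjusted p = 1). Scaled to mapped reads it was −61.2 nt for each 1000000 reads (exact permutation p = 0.00833, not adjusted). With 1 mouse left out and no scaling, the exact permutation p ran from 0.0238 to 0.369.

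*Tubb4b*, a widely expressed isotype also found in cilia, was covered over 270, 118 and 266 nt in naïve mice. In EAE it had 147, 0 and 0 nt in mild mice 3, 4 and 7 and 0, 0, 149 and 0 nt in severe mice 1, 2, 5 and 6. All naïve mice but only 2 of 7 EAE mice had a footprint there, and those 2 lay above naïve mouse 2. The mean was 218 ± 86.6 nt in naïve mice (SD, n = 3) and 42.3 ± 72.2 nt in EAE mice (SD, n = 7), a difference of −176 nt (exact permutation p = 0.025, adjusted p = 0.541). On other scales the unadjusted exact permutation p was 0.00833 (mapped reads), 0.0167 (per 100000 covered nt) and 0.025 (log2). The difference did not pass 0.05 without naïve mouse 1 or naïve mouse 3 (exact permutation p = 0.0833 for each). It also did not without severe EAE mice 1, 2 and 6, whose lists were short (exact permutation p = 0.171). All 10 *Tubb4b* footprints had a near-identical copy elsewhere in the genome, so that no value is left when such footprints are dropped.

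*Tubb4a*, the isotype of oligodendrocytes and brain, had 121, 198 and 230 nt in naïve mice, 506, 210 and 811 nt in mild EAE and 0, 0, 743 and 0 nt in severe EAE. Mild EAE mouse 4 lay within the naïve range and mild EAE mice 3 and 7 above it, and the difference of mild EAE from naïve mice, 326 nt, was not beyond the spread (exact permutation p = 0.2, adjusted p = 0.920). *Tubb5*, expressed in most cells, was at 0, 0 and 317 nt in naïve mice, at 367, 233 and 447 nt in mild EAE and at 141, 0, 1038 and 0 nt in severe EAE. A footprint was thus present in 1 of 3 naïve mice and in 5 of 7 EAE mice, and the difference of 212 nt was within the spread (exact permutation p = 0.4, adjusted p = 1). *Tubb2a*, a beta-tubulin of neurons among other cells, was at 253, 0 and 182 nt in naïve mice, at 346, 0 and 536 nt in mild EAE and at 0, 0, 531 and 0 nt in severe EAE, with a difference of 56.9 nt between EAE and naïve mice (exact permutation p = 0.75, adjusted p = 1).

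Of the actins, *Actb*, which encodes beta-actin, had 0, 0 and 193 nt in naïve mice, 72, 38 and 68 nt in mild EAE and 0, 0, 65 and 0 nt in severe EAE. Its difference between EAE and naïve mice was −29.6 nt (exact permutation p = 0.642, adjusted p = 1), and the only naïve mouse with a footprint had the highest value. *Actg1*, which encodes gamma-actin, had 0, 342 and 401 nt in naïve mice, 137, 145 and 132 nt in mild EAE and 0, 0, 192 and 0 nt in severe EAE. Naïve mice spanned the range of all EAE mice, and the difference was −161 nt (exact permutation p = 0.1, adjusted p = 0.831). Without naïve mouse 1, which had none, it passed 0.05 before adjustment (−285 nt, exact permutation p = 0.0278).

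Where the footprints lay along the genes was then compared. Of the 19285 nt covered in the 10 genes over all mice, 89.1% were coding, 5.15% 5′UTR, 4.81% 3′UTR and 0.918% intronic. By midpoint, 120 of the 137 footprints were coding, 12 lay in a 5′UTR, 4 in a 3′UTR and 1 in an intron, that of *Tubb4a* in mild EAE mouse 7. Footprints were 18 to 519 nt long, with a median of 121 nt. In all protein-coding genes of the 9 mice with a tubulin or actin footprint, 37.6% to 72.0% of the covered nt were coding and 20.5% to 53.0% intronic. Introns make up a median of 37.3% of the body of the 10 genes against 79.5% over 22028 protein-coding genes. Within exons alone, 85.1% to 100% of the covered nt of the 10 genes were coding, and 61.7% to 90.6% of those of all protein-coding genes, by mouse. Mild EAE mouse 3 was the one mouse in which the 10 genes had the lower share, 87.9% against 90.6%.

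The coding share of the 10 genes reached 97.3%, 99.9% and 92.3% for naïve mice 1, 2 and 3, whereas mild EAE mice 3, 4 and 7 had 87.9%, 89.5% and 84.1%. All naïve mice thus lay above all mice with mild EAE, with means of 96.5% ± 3.86 and 87.1% ± 2.78 (SD, n = 3 each), a difference that was not tested. Over all protein-coding genes the groups were separated the other way, with coding shares of 37.6% to 51.5% for naïve mice against 54.7% to 72.0% for mild EAE. Introns took 39.0% to 53.0% and 20.5% to 36.8% of those nt. Within exons alone the groups overlapped over all protein-coding genes, at 77.8% to 86.5% for naïve mice and 85.2% to 90.6% for mild EAE. The 10 genes stayed apart there, at 92.3% to 100% and 87.9% to 89.5%. Of all covered nt of the 10 genes, severe EAE mice 1 and 6, with 2 footprints and 1, had 100% in coding sequence, and severe EAE mouse 5 had 85.0%. By gene the coding share ran from 83.3% in *Actg1* to 100% in *Tuba4a*, with *Actb* apart at 11.2%. *Actb* had 55.7% of its covered nt in the 5′UTR and 33.0% in the 3′UTR. Further 3′UTR nt came from *Tubb5* (12.6% of its covered nt), *Actg1* (11.7%) and *Tuba1b* (9.8%).

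**Figure D3:**
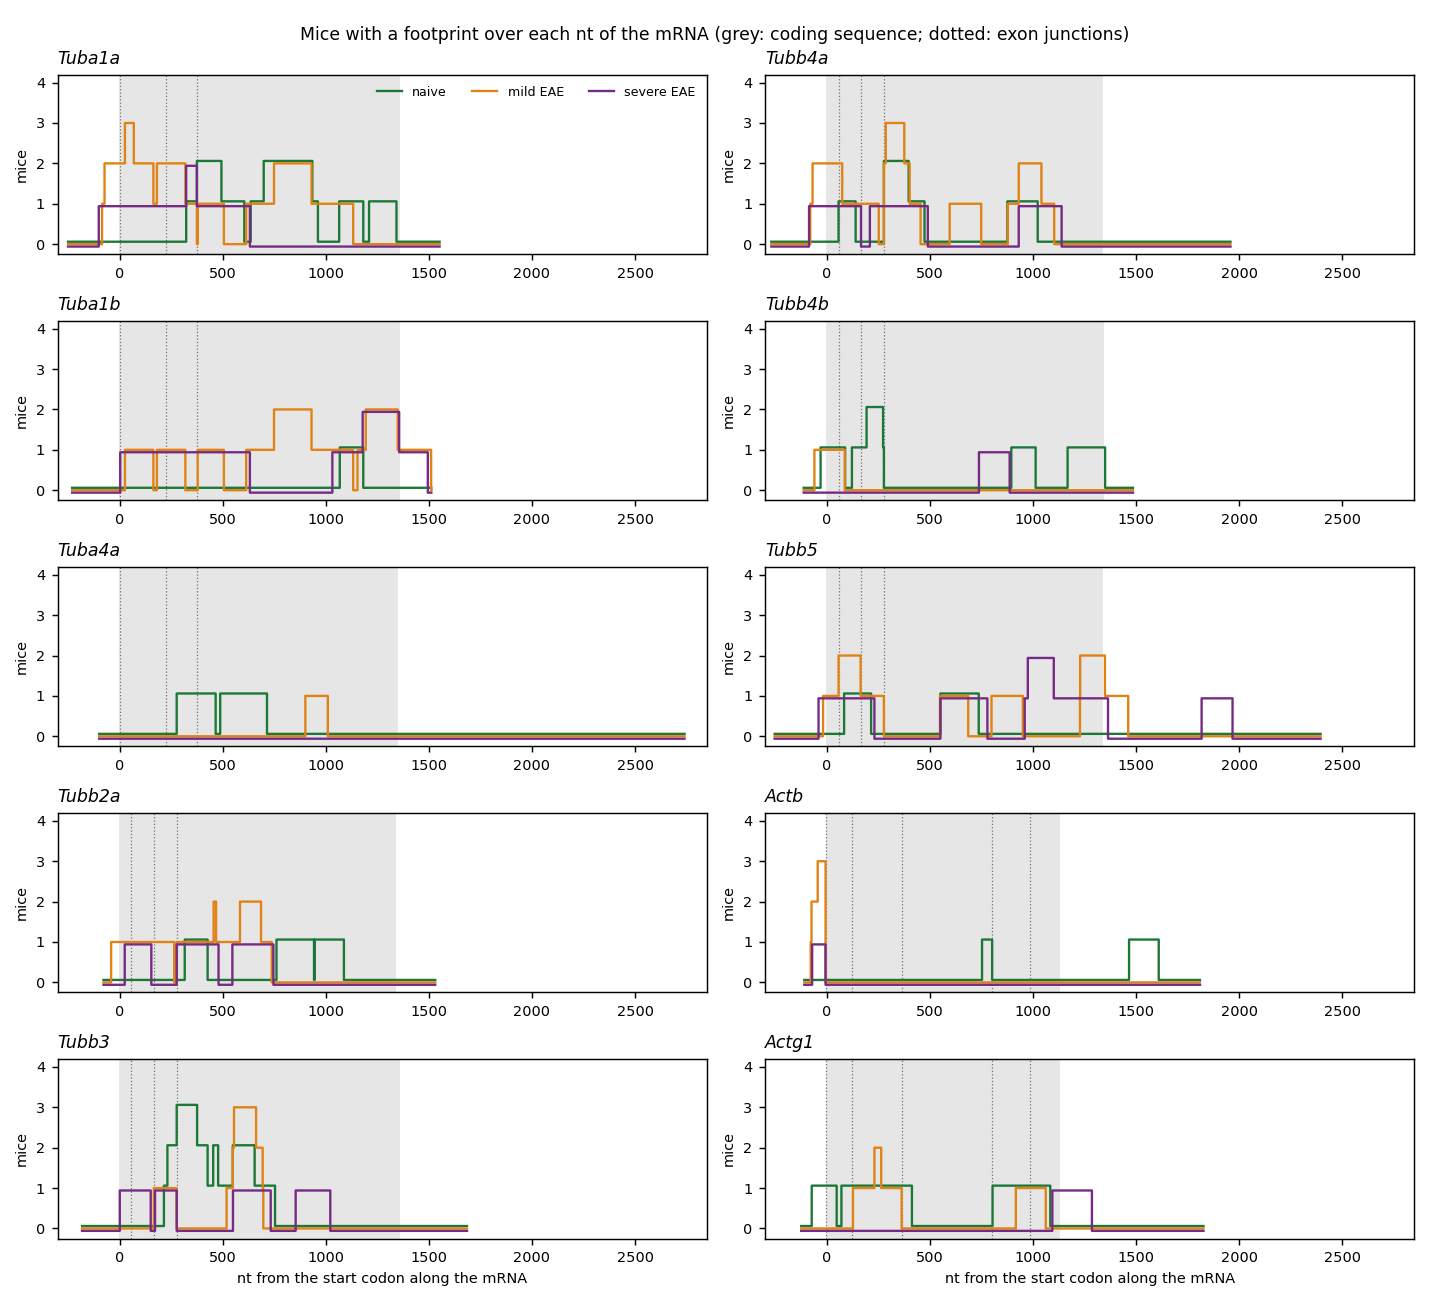
Number of naïve, mild EAE and severe EAE mice (vertical axis) with a footprint over each nt of the mRNA of each gene (horizontal axis, nt from the start codon), with the coding sequence in grey and exon junctions dotted, and lines of the groups set slightly apart. Up to 3 naïve mice meet in *Tubb3*, and up to 3 mice with mild EAE in *Tuba1a*, *Tubb3*, *Tubb4a* and *Actb*.

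Taken over all mice, footprints touched 97.0% of the coding sequence of *Tuba1a* and 99.8% of that of *Tuba1b*, but 39.0% of that of *Tuba4a*. Among the beta-tubulins, 79.1% of the coding sequence was covered in *Tubb2a*, 77.5% in *Tubb5*, 67.9% in *Tubb4a*, 67.0% in *Tubb3* and 50.9% in *Tubb4b*. *Actg1* was covered over 62.4% and *Actb* over 4.34% of the coding sequence, although the proteins are nearly the same. At the most covered nt, 6 mice met in *Tubb3* and in *Tubb4a*, 4 in *Tuba1a*, *Tuba1b*, *Tubb5* and *Actb*, 3 in *Tubb2a* and *Actg1*, 2 in *Tubb4b* and 1 in *Tuba4a*.

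A stretch counted as shared where more than 1 nt was covered in at least 2 mice of a group. Naïve mice shared stretches in 4 of the 10 genes, *Tuba1a*, *Tubb3*, *Tubb4a* and *Tubb4b*. Mice with mild EAE shared them in 8, all but *Tuba4a* and *Tubb4b*, and mice with severe EAE in 3, *Tuba1a*, *Tuba1b* and *Tubb5*. Of the 13948 footprinted genes, a shared stretch existed for 20.2% among naïve mice, for 24.2% among mice with mild EAE and for 6.44% among those with severe EAE. The 13948 include genes footprinted in 1 mouse only, which cannot hold a shared stretch. Only 6731 of them, but 9 of the 10 genes, were footprinted in at least 3 mice, so these shares are not a like measure to the counts of the 10 genes. The group of severe EAE held 4 mice and the others 3. Leaving out 1 mouse at a time, the number ran from 2 to 3 genes in naïve mice, from 4 to 7 in mild EAE and from 0 to 3 in severe EAE, and it was 4 without mild EAE mouse 3 and 0 without severe EAE mouse 5.

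*Tubb3* had most shared stretches in naïve mice, 4 in number, of which 3 lay in its last exon. At chr8:123420607-123420756, positions 278 to 427 at the start of exon 4, naïve mice 1, 2 and 3 were covered over 150, 150 and 99 nt and all 7 EAE mice over 0 nt. At chr8:123420879-123421023, positions 550 to 694, naïve mice had 145, 0 and 106 nt, mild EAE mice 145, 113 and 139 nt, and 144 nt were covered in severe EAE mouse 5. The former was covered in naïve mice only, and the latter in mice of all groups. Between them, 24 nt at positions 455 to 478 were covered in naïve mice 2 and 3 and in no EAE mouse. Such a site, at least 20 nt covered in all 3 naïve mice and in no EAE mouse, was present in *Tubb3* alone of the 10 genes (99 nt, chr8:123420607-123420705), where 1.70% of the 13948 footprinted genes held one. Only genes footprinted in at least 3 mice can hold one. These were 6731 genes, 9 of the 10 among them, and 237 held one. Severe EAE mice 1, 2 and 6 had no footprint anywhere in *Tubb3*, so that the EAE mice footprinted in the gene were mild EAE mice 3, 4 and 7 and severe EAE mouse 5. In naïve mouse 1 the footprint at this site also had a near-identical copy on chromosome 6, where that mouse had no footprint.

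Sites covered in all 3 mice with mild EAE and in no naïve mouse, again of at least 20 nt, were found in 2 of the 10 genes, where 3.84% of footprinted genes held one (536 genes, out of the 6731 that could). They were 43 nt of *Tuba1a* at chr15:98951626-98951668 in exon 2 and 38 nt of *Actb* at chr5:142906652-142906689 in exon 1. Severe EAE mouse 5 was covered at both as well, a pattern held by 400 genes (2.87% of all footprinted genes). The *Tuba1a* site lay in a longer stretch at positions 4 to 164, over which mild EAE mice 3, 4 and 7 had 66, 138 and 161 nt, severe EAE mouse 5 had 161 nt and all naïve mice 0 nt. All footprints over the *Tuba1a* site had near-identical copies elsewhere. In mild EAE mouse 4 the footprint was identical to *Tuba1b*, where the same mouse had a footprint with the same ends within 5 nt. The site therefore cannot be assigned to *Tuba1a* in every mouse with mild EAE.

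In *Actb* the stretch shared in mild EAE lay in the 5′UTR, at positions −74 to −7 up to the end of the noncoding first exon. Mild EAE mice 3, 4 and 7 had 68, 38 and 68 nt of it and severe EAE mouse 5 had 65 nt, and it was the only part of *Actb* with a footprint in any EAE mouse, apart from a few nt next to it. Naïve mice had none there, and the footprints of naïve mouse 3 in *Actb* lay in the 3′UTR (144 nt) and in coding sequence (49 nt). The plot of single mice along *Tubb3*, *Tubb4a* and *Actb* sets these sites side by side.

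**Figure D4:**
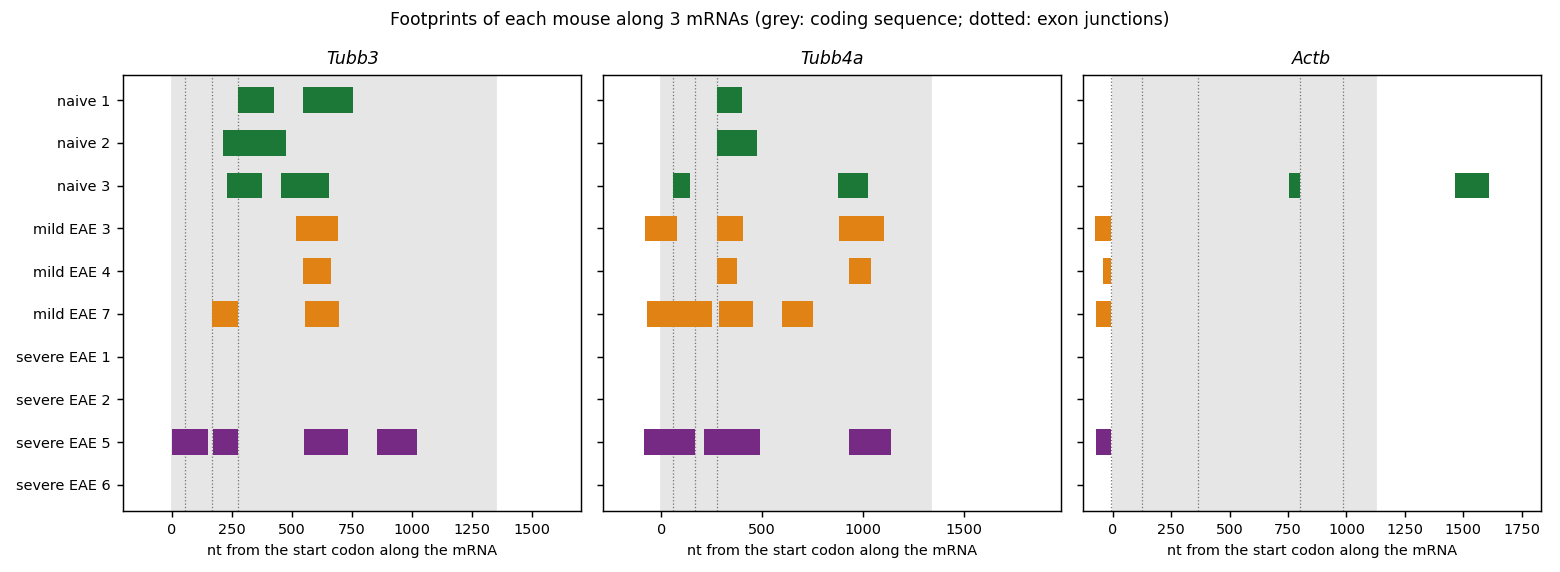
Footprints of each mouse (1 row per mouse, naïve green, mild EAE orange, severe EAE purple) along the mRNAs of *Tubb3*, *Tubb4a* and *Actb* (horizontal axis, nt from the start codon), with the coding sequence in grey and exon junctions dotted. In *Tubb3* the naïve mice alone are covered just after the last junction, and in *Actb* the 4 footprinted EAE mice are covered at the end of the first exon, where the naïve mice are not.

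*Tubb4a* was shared at positions 278 to 402 (chr17:57081623-57081748), where naïve mice had 121, 126 and 0 nt, mild EAE mice 126, 100 and 116 nt and severe EAE mouse 5 had 125 nt. That place, like the *Tubb3* site covered in naïve mice alone, opens the last exon of its gene. Toward the 5′ end, 126 nt around the start codon of *Tubb4a* (positions −69 to 57) were covered in full in mild EAE mice 3 and 7 and in severe EAE mouse 5, and in no other mouse. In *Tuba1a*, 76 nt of exon 1 (positions −73 to 3) were covered in the same 3 mice and in no other. The first exons of all 10 genes together had 87, 0 and 67 nt in naïve mice, 402, 38 and 455 nt in mild EAE and 0, 0, 497 and 0 nt in severe EAE. First-exon nt came from 4, 1 and 5 genes in the mice with mild EAE, from 6 genes in severe EAE mouse 5 and from at most 1 gene in any naïve mouse. As a share of exonic nt this was 7.44%, 0% and 2.31% in naïve mice, 10.7%, 2.42% and 17.2% in mild EAE and 9.66% in severe EAE mouse 5, so that mild EAE mouse 4 lay among the naïve mice. First exons were not counted over all footprinted genes, and whether these values are particular to the 10 genes was not tested.

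In the remaining genes, *Tubb5* was shared in mild EAE at positions 58 to 164 (107 nt in mild EAE mice 3 and 7 and in severe EAE mouse 5, 80 nt in naïve mouse 3) and across 120 nt at the end of the coding sequence (mild EAE mice 3 and 4, and severe EAE mouse 5). Severe EAE mice 1 and 5 shared 126 nt of *Tubb5* at chr17:35835216-35835341, where no other mouse was covered. *Tuba1b* was shared by mild EAE mice 3 and 4 and severe EAE mice 5 and 6 over 155 nt, where no naïve mouse had a footprint at *Tuba1b*. Naïve mouse 2 had a footprint of 133 nt in *Tuba1a* whose sequence was identical to part of that stretch. In severe EAE mouse 6 that was part of its only footprint in the 10 genes. *Tubb4b* was shared by naïve mice 1 and 3 over 80 nt of exon 3, and *Actg1* over 33 nt by mild EAE mice 3 and 7, with naïve mouse 2 covered there too. *Tubb2a* was shared over 102 and 12 nt by mild EAE mice 3 and 7, and severe EAE mouse 5 was covered at both.

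The ends of the footprints often fell at exon borders. Of the 136 footprints with an exonic midpoint, 83 (61.0%) had an end within 2 nt of a splice site and 16 (11.8%) had both, and none crossed an exon-intron border by at least 10 nt on both sides. In all protein-coding genes the shares were 77.3%, 18.6% and 2.28% of 86909 footprints. At 21 of the 34 introns of the 10 genes, at least 1 mouse had footprints ending at both splice sites, and over mice there were 36 such junctions. They numbered 3, 3 and 5 in naïve mice, 5, 1 and 8 in mild EAE and 0, 0, 11 and 0 in severe EAE. *Actb* had none at its 5 introns.

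UAG occurred 4.45 times per 1000 nt in the 120 footprints with a coding midpoint, and AGGU 3.30 times. In coding footprints of all protein-coding genes, 77186 in number, the densities were 5.38 and 3.15 per 1000 nt. In parts of the 10 mRNAs that no footprint covered they were 5.35 and 2.39. Those parts include UTRs as well as coding sequence, so that they are not a like measure to the coding footprints. UAG was present in 61 (50.8%) of the 120 footprints and AGGU in 46 (38.3%). The same place counts once for each mouse that covers it, and no test was made of these densities.

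Since tubulin and actin genes have many copies, each footprint was searched in the genome. A near-identical copy, at least 95% identity over at least 90% of the footprint outside the gene, existed for 82 of the 137 footprints (59.9%, exact 95% binomial interval 51.1% to 68.1%, counting error only). That interval takes footprints as independent, although the same place counts once for each mouse and copies go largely by gene, so that it is too narrow. For 35 (25.5%) a copy was identical over the whole length. In 53 cases (38.7%) a copy was itself covered by a footprint of the same mouse. Over all footprints there were 412 copies, of which 305 lay in annotated pseudogenes, 85 in other genes and 22 in no annotated gene. At 161 of the copies the same mouse had a footprint, and at 102 of these its ends agreed within 5 nt.

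**Figure D5:**
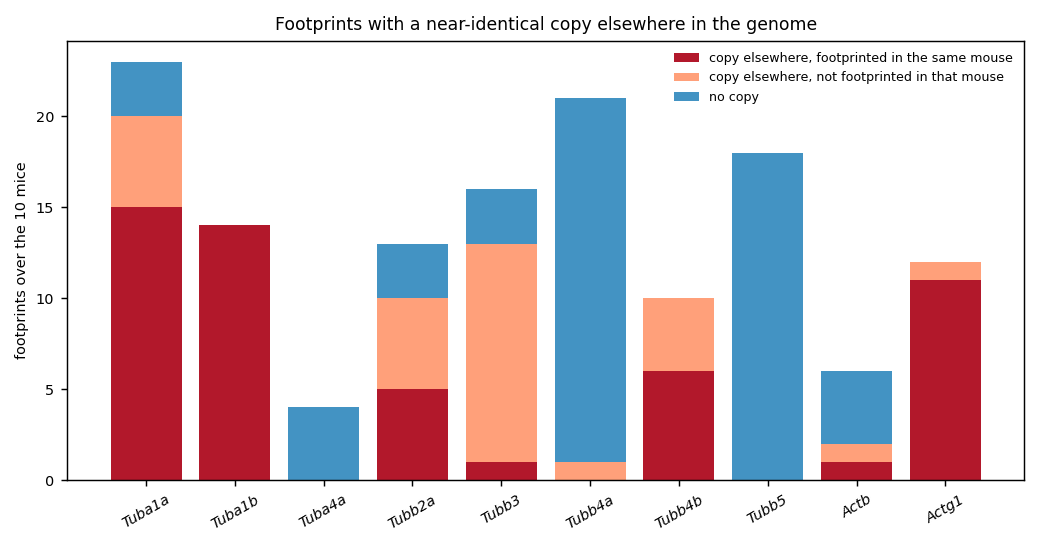
Footprints of each gene over the 10 mice (bar height), divided into those with a near-identical copy elsewhere that was covered in the same mouse (dark red), those with a copy not covered in that mouse (light red) and those without a copy (blue). All 14 footprints of *Tuba1b* have a copy covered in the same mouse, and none of the 18 footprints of *Tubb5* has a copy.

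The genes differed in this respect. All footprints of *Tuba1b* (14 of 14), *Actg1* (12 of 12) and *Tubb4b* (10 of 10) had a copy, as did 20 of 23 in *Tuba1a*, 13 of 16 in *Tubb3* and 10 of 13 in *Tubb2a*. *Tubb5* (0 of 18), *Tuba4a* (0 of 4), *Tubb4a* (1 of 21) and *Actb* (2 of 6) had few or none. The copies of *Tubb3* lay at 1 place on chromosome 6 without an annotated gene and were covered in the same mouse once in 16 footprints. Those of *Actg1* lay mainly in processed pseudogenes, among them *Gm12715*, *Gm8399*, *Actg-ps1* and *Gm16385*, and 11 of its 12 footprints had a copy covered in the same mouse. *Tubb4b* was copied in *Tubb4b-ps1*, inside the gene *Zfp804b*, and in *Tubb4b-ps2*. For *Tubb2a*, 8 footprints had a copy in its neighbour *Tubb2b*.

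Between *Tuba1a* and *Tuba1b*, 20 of the *Tuba1a* footprints had their copy in *Tuba1b*. In 10 of them the same mouse also had a footprint at the copy, in all 10 with the same ends within 5 nt, in mild EAE mice 3 and 4, severe EAE mouse 5 and naïve mouse 2. Mild EAE mouse 7 had 460 nt of *Tuba1a* and none of *Tuba1b*, and naïve mice 1 and 3 likewise had *Tuba1a* alone. For these genes the same RNA may have been placed at more than one copy, so that the covered nt of *Tuba1a* and *Tuba1b* cannot be told apart where their sequences match. Annotated genes also overlap some spans, namely *Gm49450* over *Tuba1a* and *Tuba1b*, *Gm41396* antisense to *Tuba1b*, *Stk16* at *Tuba4a*, *Gm20388* over *Tubb3*, *Fam166a* at *Tubb4b* and the miRNA genes *Gm23419* and *Mir6935* in *Actg1*. The lists give no strand, and such partners were not separated.

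Genes that work with tubulin and actin were counted from lists of related genes. Of 12 other tubulins, 4 were footprinted. *Tuba1c*, a close relative of *Tuba1a*, had 0, 290 and 230 nt in naïve mice, 784, 138 and 0 nt in mild EAE and 0, 0, 341 and 0 nt in severe EAE. *Tubb2b* had 142, 0 and 182 nt in naïve mice, 154, 0 and 143 nt in mild EAE and 0, 0, 234 and 0 nt in severe EAE, in the same mice as *Tubb2a*. At 5 of the 8 copies of *Tubb2a* footprints in *Tubb2b* the same mouse had a footprint, at 4 with the same ends within 5 nt. For *Tuba1a* footprints this held at 7 of 19 copies in *Tuba1c*, all 7 with the same ends. Values of these pairs cannot be told apart where their sequences match. *Tubg1*, the gamma-tubulin that nucleates microtubules, had 116, 159 and 176 nt in naïve mice and 119 nt in mild EAE mouse 7, and none in the other 6 EAE mice. It was the 1 other tubulin lower in EAE before adjustment (exact permutation p = 0.0167, adjusted p = 0.515), and the 4 severe EAE mice all lay below the naïve mice. *Tubg2* had 39, 329 and 90 nt in naïve mice, 166 nt in mild EAE mouse 4 and 145 nt in severe EAE mouse 5.

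Of 11 other actins and actin-related proteins, 8 were footprinted and 6 tested, and *Actr3b*, an actin-related protein of the ARP2/3 type, was lower in EAE before adjustment. It had 163, 151 and 137 nt in naïve mice and 110 nt in mild EAE mouse 4 alone of the EAE mice (exact permutation p = 0.00833, the smallest possible, adjusted p = 0.449). *Actr1b*, of the dynactin complex, had 101, 0 and 131 nt in naïve mice and 593, 202 and 437 nt in mild EAE, with 582 nt in severe EAE mouse 5. *Actr3*, the core ARP3 subunit, was shared in naïve mice and in mild EAE.

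Among 24 genes of tubulin folding and dimer binding, 20 were footprinted and 15 tested, and none had an exact permutation p under 0.05 between EAE and naïve mice. The cofactors *Tbcd* and *Tbce* and *Stmn2*, a tubulin-binding protein of neurons, were shared in naïve mice and in mild EAE, and *Tcp1*, a subunit of the chaperonin that folds tubulin and actin, in mild and severe EAE. Of 18 genes of tubulin modification, 11 were footprinted and 7 tested, again with none under 0.05. *Sirt2*, a tubulin deacetylase abundant in oligodendrocytes, was shared in all groups and had 360, 103 and 534 nt in naïve mice, 838, 194 and 1062 nt in mild EAE and 225, 0, 1021 and 0 nt in severe EAE. The acetylase gene *Atat1*, the glutamylase gene *Ttll7* and the deglutamylase gene *Agtpbp1* were shared in naïve mice and mild EAE, and *Ttll5* in mild and severe EAE.

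All 26 regulators of actin monomers and filaments were footprinted, 18 were tested and none had an exact permutation p under 0.05. *Pfn1*, profilin, was at 0 nt in all naïve mice and at 153, 136 and 241 nt in mild EAE, with 426 nt in severe EAE mouse 5. *Arpc1b*, an ARP2/3 subunit, was at 0 nt in all naïve mice, at 388, 146 and 199 nt in mild EAE and at 321, 0, 895 and 0 nt in severe EAE. These were the 2 regulators of the 18 in which every mouse with mild EAE lay above every naïve mouse, where 5.24% of all tested genes did. *Tpm3*, a tropomyosin, lay the other way, with 324, 213 and 484 nt in naïve mice and 202, 21 and 206 nt in mild EAE (exact permutation p = 0.1 for each of the 3 genes, adjusted p = 0.920). *Arpc2* was shared in all groups, *Tmsb10*, *Tpm1*, *Actn1* and *Actn4* in naïve mice and mild EAE.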

How the data were processed

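hnRNP A1 CLIPseq was analysed for 10 mice, 1 immunoprecipitation each. Per the labels and methods, the authors prepared reads with bcl2fastq 2.19.0.316 and fastp, assembled them with rnaSPAdes, placed the contigs on GRCm38 by spliced alignment in minimap2 2.17, removed sites of the matched input or pooled IgG with bedtools and joined sites that overlapped. The deposited values, of no standard unit, are the chromosome, start and end of each footprint, with neither strand nor read number. Contigs carry no depth, so footprint length cannot be weighted by reads, and alignment of contigs from copied genes can place them at a copy. The labels name antibody clone 9H10 and the methods clone 4B10. Inputs and IgG controls were not analysed here.

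Covered nt per gene were taken from GENCODE release M 21 spans and mice were compared by exact permutation tests (two-sided). Groups of 3 against 3, 3 against 4 and 3 against 7 mice cannot give p below 0.1, 0.0286 and 0.00833. Copies were found with blastn 2.17.0, with Python 3.11.15, numpy 2.4.6, scipy 1.17.1, pysam 0.24.0 and matplotlib 3.10.9. Scripts were tested on simulated data. Samples were grouped by clinical score, and each mouse was 1 replicate. The genes and all lists were chosen with earlier results of these data known. All 10 genes are named, and of the related lists, tubulins, actins and genes with a stretch shared in at least 2 groups. *Pfn1*, *Actr1b* and *Actr3b* were named after their values were seen. Alternatives were footprint length limits, 3 other scales (one by the mapped reads the study gives for each library), exons only, wider spans, other gene filters, footprint numbers, dropping copies, other overlap, class and identity rules, a replicate block, each mouse left out in turn and, chosen after seeing the data, 3 short lists left out. Some sequences and 1 gene that these rules select are not reported here.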

Additional observations from a re-analysis of the deposited data

Results flagged for a closer look

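In severe EAE, mouse 5 stood apart from the other 3 mice of its group, by a gap to the nearest of them that took 0.838 to 1 of the whole range, in all 11 measures examined. For *Tubb2a*, *Tubb3*, *Tubb4a*, *Tubb4b*, *Actb* and *Actg1* the other 3 mice were at 0, so that any footprint in mouse 5 gives a gap of 1, and these 6 values carry no information on its size. Its list held 31870 footprints, where severe EAE mice 1, 2 and 6 had 2670, 209 and 673, and its footprints covered 5150 nt of the 10 tubulin and actin genes. It had 733 nt of *Tuba1a* and 1093 nt of *Tuba1b*. Of the beta-tubulins it had 531 nt of *Tubb2a*, 606 nt of *Tubb3*, 743 nt of *Tubb4a*, 149 nt of *Tubb4b* and 1038 nt of *Tubb5*. Of the actins it had 65 nt of *Actb* and 192 nt of *Actg1*. For normally distributed values chance marks about 1 in 20 groups in this way, a rate that does not apply to those 6 genes. The remaining 5 measures cannot fall below 0 and are very uneven, so that the rate need not hold for them either. They are also not independent, since all come from the same 4 lists. The paper also describes severe EAE mouse 5, under another number, as an outlier of its group that had been in remission shortly before the experiment ended.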

How the results depend on the processing

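The summed difference of EAE from naïve mice changed from 89.3 nt to 1463 nt when severe EAE mice 1, 2 and 6 were left out, which left the long list of mouse 5 alone in severe EAE, and severe EAE then differed by 3284 nt from naïve mice and by 2428 nt from mild EAE. Scaled to mapped reads (nt for each 1000000 reads), the summed differences were −209 nt for EAE, −41.9 nt for mild and −335 nt for severe EAE against naïve mice, the first 2 turned in sign. The sign of the severe difference turned per 100000 covered nt (17.4) and without copies (51.2 nt). With single mice left out in turn, the differences ran from −443 to 609 nt for EAE, 329 to 1431 nt for mild EAE and −1743 to 34 nt for severe EAE against naïve mice, and −2599 to −815 nt for severe against mild EAE, the lowest value of both severe contrasts being that without severe EAE mouse 5. The number of genes with exact permutation p under 0.05 between EAE and naïve mice, 1, was 2 scaled to mapped reads (*Tubb3* and *Tubb4b*), 0 without footprints that have copies, where *Tubb4b* has no value, 0 without severe EAE mice 1, 2 and 6, and 0 to 2 with 1 mouse left out, with *Tubb3* added without severe EAE mouse 5, *Actg1* in place of *Tubb4b* without naïve mouse 1, and no gene left without naïve mouse 3. Against naïve mice, severe EAE had 1 such gene, *Tubb4b*, scaled to mapped reads and 1 per 100000 covered nt, and against mild EAE 1, *Actb*, per 100000 covered nt, where the main number was 0. With naïve and EAE mice of the same number paired in a replicate block, the summed difference was −543 nt and 0 genes passed, as 3 pairs allow no p below 0.25. Deviations of same-numbered mice correlated at −0.0255, 0.105 and 0.0201, and 1 of the 3 EAE mice correlated best with its own number. With 3 pairs, and with the short lists of severe EAE mice 1 and 2 among them, this cannot show whether such mice share more than a number. The sign of the difference between EAE and naïve mice turned for *Tuba1a* (0.550 per 100000 covered nt, 38.3 nt without copies, 205 nt without severe EAE mice 1, 2 and 6, and −165 to 27.4 nt with 1 mouse left out), *Tubb2a* (−1.83 scaled by mapped reads, −1.37 on the log2 scale, −15.6 to 111 nt with 1 mouse left out), *Tubb4a* (−8.16 scaled by mapped reads, −2.34 on the log2 scale) and *Actb* (0.84 on the log2 scale, 34.7 nt without copies, −61.8 to 34.7 nt with 1 mouse left out). When a shared stretch in severe EAE had to be covered in 3 mice, 0 genes held one in place of 3, and leaving out 1 mouse gave 2 to 3 genes in naïve mice, 4 to 7 in mild EAE and 0 to 3 in severe EAE. The coding share in mild EAE was 83.1% by midpoint in place of 87.1%, and copies existed for 68.6% of footprints at 90% identity and for 25.5% when identical. The cause of these changes was not tested, and the unknown depth at each gene limits what absence of a footprint shows.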
